A study of Mus musculus with 2 samples.

Results

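Tektins are filament-forming proteins of the axoneme, the shaft of microtubules inside a beating cilium or sperm tail. They run inside the doublet microtubules, where a larger set of microtubule inner proteins lines the lumen and holds the wall together. In the airway this machinery belongs to the multiciliated cells, whose motile cilia are built under the transcription factor Foxj1. The genes described here are 8 that encode tektins or other lumen proteins: Tekt1, Tekt2, Tekt3, Tekt4, Efhc2, Mns1, Cfap126 and Cfap161. They were chosen by gene name, through the name or transcript accession of each probe, with earlier results of these data known. They are 8 of 27597 genes on the array, with 10 of its 41174 probes. Of these 8 genes, 7 were detected, meaning that at least 1 channel of a probe was well above background.

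RNA came from the lung lobes of 1 heterozygous (Foxj1 +/–) and 1 homozygous (Foxj1 –/–) embryo at E16.5, male litter mates of the Foxj1lacZ line on a Sv129/CD-1 hybrid background. Both lungs therefore carried the lacZ allele at least once, and no lung without it was hybridised. On 1 array read in both colours, Cy3 marked the heterozygous and Cy5 the homozygous RNA, with no dye swap, so genotype, embryo and dye cannot be told apart. With 1 lung per genotype there is no replicate check and no p-value. The value after ± is the error that the scanner software gives its own log ratio of the same probe, which covers spot noise and not differences between animals. In lobe RNA, fewer cells of a type and less RNA per cell cannot be told apart.

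The array measured 21171 genes, of which 19206 were well above background in both channels. A further 1694 were so in the homozygous channel only and 271 in the heterozygous channel only. All 10 markers of lung epithelium were measured in both channels, with ratios from −0.58 to 0.37 on the log2 scale of homozygous over heterozygous. These markers, like all lists here, were chosen with earlier results of these data known. Their median was 0.15. When ratios were centred on the array median in place of a loess curve it was 0.76, with 2 genes at least 2-fold higher. The median of all detected genes was then 0.22. Foxj1 itself had levels of 9.53 in the heterozygous and 7.61 in the homozygous lung (log2 intensity), a log2 ratio of −1.92 ± 0.30. Whether its probe, at chr11:116146990-116147049 of the mm8 build, lies within the part altered by the lacZ allele was not analysed here, so this ratio may not check the labels.

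The oligonucleotides on which the values rest are 60 bases long, and 3 of them are shown because they bear on how far a ratio can be trusted. They are given 5′ to 3′ as deposited with the array, on the mm8 build. The first detects Tekt1 across a genomic span of 6105 bases at chr11:72161948-72168052, minus strand, so that its sequence is contiguous only after splicing. The other 2 detect Efhc2 on the minus strand of the X chromosome and overlap, with the 36 shared bases in capitals. They lie at chrX:16289246-16289305 and chrX:16289222-16289281. Exon and UTR annotation on this build was not used here.
Tekt1 spliced probe: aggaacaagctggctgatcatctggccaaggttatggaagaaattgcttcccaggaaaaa
Efhc2 upstream probe: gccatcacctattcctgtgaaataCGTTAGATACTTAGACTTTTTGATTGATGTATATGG
Efhc2 downstream probe: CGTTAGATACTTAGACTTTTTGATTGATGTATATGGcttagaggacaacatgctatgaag

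Of the 7 detected genes, 5 were at least 2-fold lower in the homozygous lung, 1 was lower by less and 1 was higher. The 5 are Cfap126, Cfap161, Tekt2, Tekt4 and Tekt1. Among all detected genes 1.88% passed the same size of decrease, and 0.576% passed it upwards. The median log2 ratio of the 7 was −1.41, beside −0.0027 for all detected genes. When the array was centred on its median ratio in place of the loess curve, which put the median of all genes at 0.22, 3 of the 7 passed and their median was −0.95. The split over all genes, 398 lower and 122 higher by 2-fold, then became 302 and 724, and it was 1143 and 593 by the scanner software's log ratio. In order from the lowest ratio the genes ran Cfap126, Cfap161, Tekt2, Tekt4, Tekt1, Efhc2 and Mns1. Of the 6 steps between neighbours in this order, those from Cfap126 to Cfap161 (0.27) and from Tekt4 to Tekt1 (0.04) were smaller than the combined scanner error of the pair, 0.49 and 0.35. The steps from Cfap161 to Tekt2 (0.52, error 0.46) and from Tekt2 to Tekt4 (0.54, error 0.38) were little larger than that error.

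**Figure D1:**
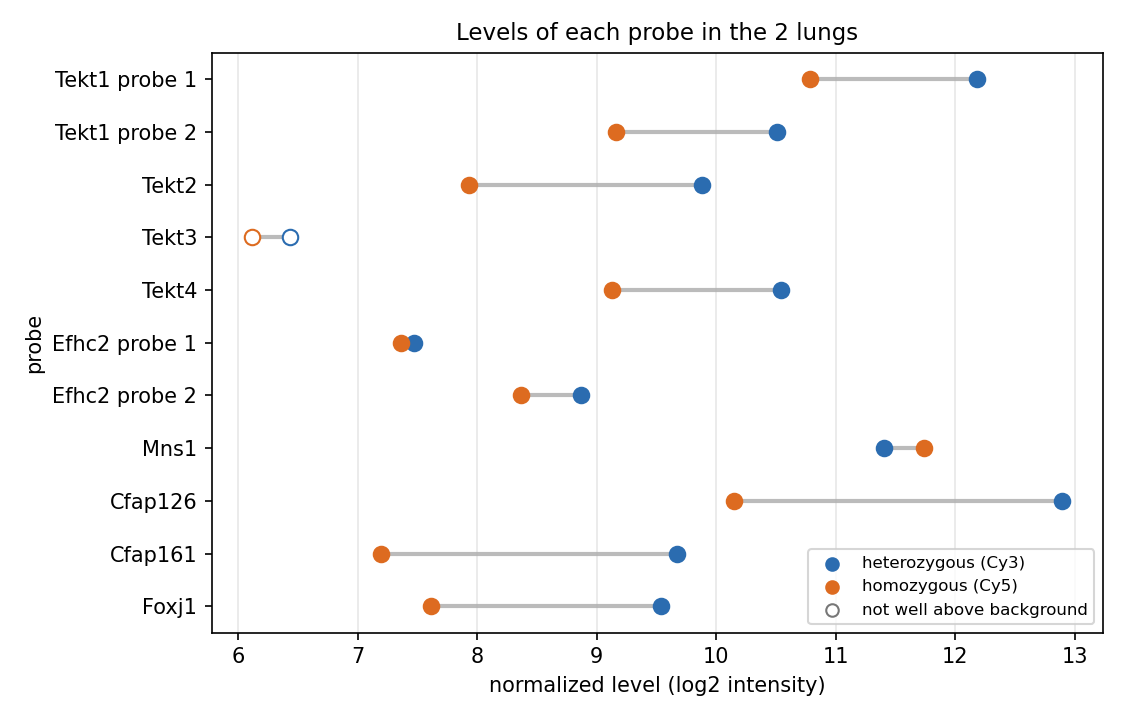
Normalized level (x axis, log2 intensity) of each probe (y axis) in the heterozygous lung (blue) and the homozygous lung (orange), with open circles where the probe was not well above background. The pair of circles is far apart for Cfap126, from 12.89 to 10.15, and reversed for Mns1, from 11.40 to 11.74; distances within a line can be read, whereas levels of different probes cannot be compared.

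Among the tektins, Tekt1 had 2 probes that gave nearly the same ratio. The probe at chr11:72160917-72160975 had levels of 12.18 (heterozygous) and 10.79 (homozygous), a log2 ratio of −1.39 ± 0.24. The spliced probe printed above had levels of 10.51 and 9.16, a log2 ratio of −1.35 ± 0.24. The ratios of the pair differ by 0.04, less than the SD of 0.054 between repeated spots of a probe over 199 probes of the array. Tekt1 as the median of both probes was 2.59-fold lower in the homozygous lung, at −1.37 ± 0.24, and 0.756% of all detected genes had a lower ratio.

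Tekt2, known to be needed for sperm tail integrity and motility, was the tektin with the deepest decrease. Its levels were 9.88 in the heterozygous and 7.93 in the homozygous lung, a log2 ratio of −1.95 ± 0.29 or 3.86-fold lower. Its probe lies at chr4:125824490-125824549, minus strand. Only 55 detected genes had a lower ratio, which makes Tekt2 number 56 from the bottom of the array, close to Foxj1 at number 60.

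Tekt4, a tektin known from the outer surface of sperm tail fibres as well as from cilia, had levels of 10.54 and 9.13. Its log2 ratio of −1.41 ± 0.25 is 2.66-fold lower in the homozygous lung, from a probe at chr17:25204119-25204178, plus strand. In the order of all detected genes Tekt1 was number 161 and Tekt4 number 151 from the bottom. Tekt1 and Tekt4 were the genes that fell short of 2-fold with median centring, at −0.86 and −0.95, and relative to the median of all genes under it they stood at −1.08 and −1.17.

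Tekt3 could not be measured. Its single probe, spanning chr11:62889693-62897427 on the plus strand, had a mean signal of 107 over a local background of 46 in the heterozygous channel and 85.6 over 57 in the homozygous channel. It was not well above background in either, and the authors' deposited matrix lists it at the floor of 15 in both, so no fold is given. Tekt5, a tektin known mainly from sperm and not among the 8 genes, was measured at levels of 8.69 and 8.42, a log2 ratio of −0.27 ± 0.21. The measured tektin genes were therefore not uniform on this array: 3 were at least 2-fold lower and Tekt5 was within 1.21-fold. Tekt3, without a measurable level, does not bear on this. With median centring Tekt2 (−1.62) passed 2-fold, while Tekt4 (−0.95), Tekt1 (−0.86) and Tekt5 (−0.02) did not.

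The lowest ratios of the 8 belonged to the small lumen proteins. Cfap126, also called Flattop, is known for a role in placing basal bodies and for its place at the ciliary doublet. Its levels were 12.89 in the heterozygous and 10.15 in the homozygous lung, a log2 ratio of −2.74 ± 0.33 or 6.69-fold lower, at chr1:172963507-172963566. Its raw mean signals were 5407 and 1617 over local backgrounds of 44 and 55 and had the same direction before normalization. Only 14 detected genes had a lower ratio.

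Cfap161, a lumen protein of ciliary and sperm tail doublets, had levels of 9.67 and 7.20 from a probe at chr7:83651996-83652055, minus strand. Its log2 ratio was −2.47 ± 0.36, or 5.55-fold lower, number 23 from the bottom of all detected genes. The homozygous raw signal was 195 over a local background of 52, and the size of the ratio moved with the processing. It was −2.91 with a normexp offset of 0 and −2.74 with plain background subtraction, which change the background step alone. It was −3.15 in the authors' deposited matrix and in the log ratio that the scanner wrote, and −2.24 with median centring.

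Efhc2 was lower by less than 2-fold and Mns1 was higher. Efhc2 encodes an EF-hand protein of the doublet lumen. Its upstream probe had levels of 8.87 and 8.36, a log2 ratio of −0.50 ± 0.21. Its downstream probe, which starts 24 bases further along the transcript, had levels of 7.47 and 7.36, a log2 ratio of −0.11 ± 0.24. The overlapping oligonucleotides therefore differed by 0.39, beyond their combined scanner error of 0.32, and the gene's value of −0.31 ± 0.23 (1.24-fold lower) rests on their median. The downstream probe was dim, with raw mean signals of 177 over a local background of 45 (heterozygous) and 197 over 52 (homozygous). Neither probe reached 2-fold.

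Mns1, required for assembly of sperm tails and motile cilia and first described in the nuclei of meiotic germ cells, was the only one of the 7 with a higher level in the homozygous lung. Its levels were 11.40 and 11.74, a log2 ratio of 0.34 ± 0.21 or 1.26-fold higher, from a probe at chr9:72257034-72257093, plus strand. After normalization 92.0% of detected genes had a lower ratio. Raw mean signals were 1938 in the heterozygous and 4837 in the homozygous channel, but the homozygous channel was brighter in general. Its median raw signal was 266, beside 210 in the heterozygous channel. The upstream probe of Efhc2 also rose in raw signal, from 391 to 438, at a normalized ratio of −0.50. Mns1 has a single probe, so the alternatives that change filters, probe choice or naming could not move its ratio. It was 0.35 with a normexp offset of 0 and 0.35 with plain background subtraction. The scanner software's log ratio and the deposited matrix both gave 0.40. Median centring gave 0.90, which was 0.68 relative to the median of all genes under it.

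**Figure D2:**
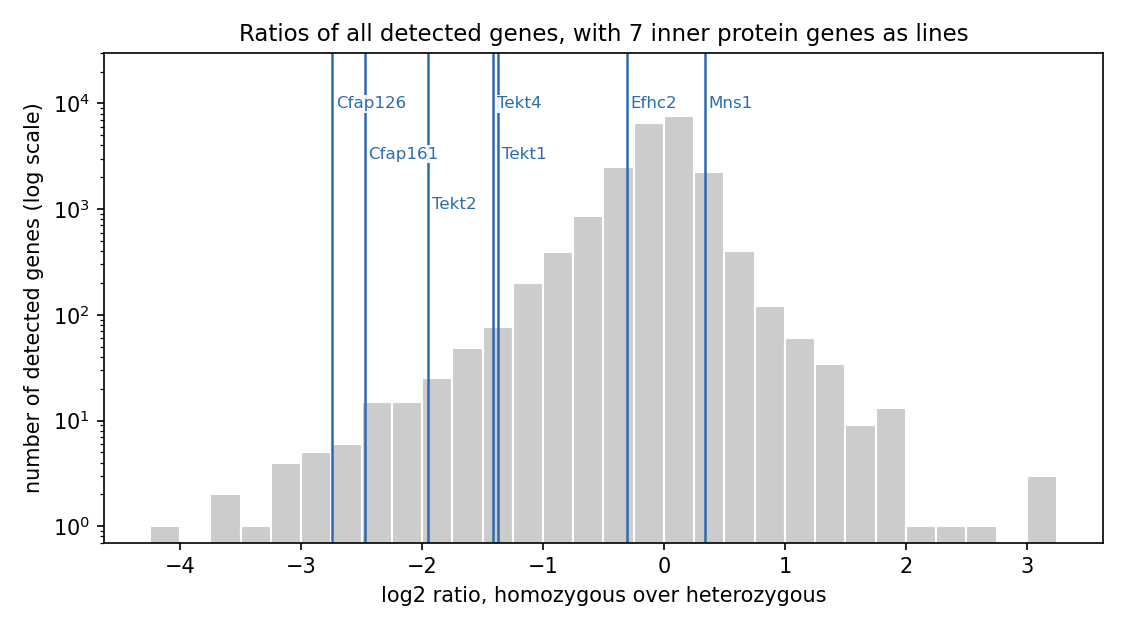
Number of detected genes (y axis, log scale) in each bin of log2 ratio, homozygous over heterozygous (x axis), with 7 of the 8 genes as blue lines. Cfap126 at −2.74 and Cfap161 at −2.47 lie in the far left tail, Tekt2, Tekt4 and Tekt1 further in, Efhc2 at −0.31 within the bulk and Mns1 at 0.34 on its right side.

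The other genes of the microtubule lumen came from a list of 36 microtubule inner proteins drawn up from general knowledge, without the 8. Of these, 27 had a named probe and 25 were detected. At least 2-fold lower were 12 of the 25, at least 2-fold higher 0, and 22 had a ratio below 0, beside 50.4% of all detected genes. Their median log2 ratio was −0.98. Of the 23 measured in both channels, 21 had a ratio below 0. The list's newer names were matched to older symbols from general knowledge, which the gene table does not check, for 11 of the 25 genes and 6 of the 12. Among the 14 genes under their own symbol, 6 were at least 2-fold lower. The lowest were 1110017D15Rik (Spmip6 on the list), with levels of 12.20 and 8.06 and a ratio of −4.14 ± 0.47, and Fam183b (Cfap144), with 12.76 and 9.15 and a ratio of −3.62 ± 0.41. These were numbers 1 and 2 from the bottom of the whole array.

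The rest of the 12 ran from −2.26 to −1.11. 1700007K13Rik (Pierce1, known to be needed for docking of outer dynein arms) stood at −2.26 ± 0.30 and Enkur, whose loss is known to disturb left-right placement of organs, at −2.03 ± 0.30. 1700094D03Rik (Cfap141) was at −1.97 ± 0.28 and Cfap52, a WD-repeat protein of the inner junction, at −1.93 ± 0.30. 1700001L19Rik (Cfap90) and 1700013F07Rik (Cfap276) were both at −1.60, and Cfap45 was at −1.52 ± 0.25. Spaca9 stood at −1.44 ± 0.24 and Cfap53, another gene known from left-right patterning, at −1.11 ± 0.28. Mdh1b had a median of −1.47 from 2 probes far apart, at −2.46 and −0.49.

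A further 10 genes of the list had ratios between −1 and 0 and 3 had ratios above 0. The highest was 1700012P22Rik (Cfap107) at 0.25 ± 0.28. Mns1 had the highest ratio of all 32 detected lumen genes, although its step of 0.08 above 1700012P22Rik was smaller than their combined scanner error of 0.34. In the same order Cfap126 and Cfap161 followed directly after the 2 lowest. Tex43 and Efcab6 were well above background in the homozygous lung only, at ratios of −0.04 and 0.09, and their direction was not determined.

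**Figure D3:**
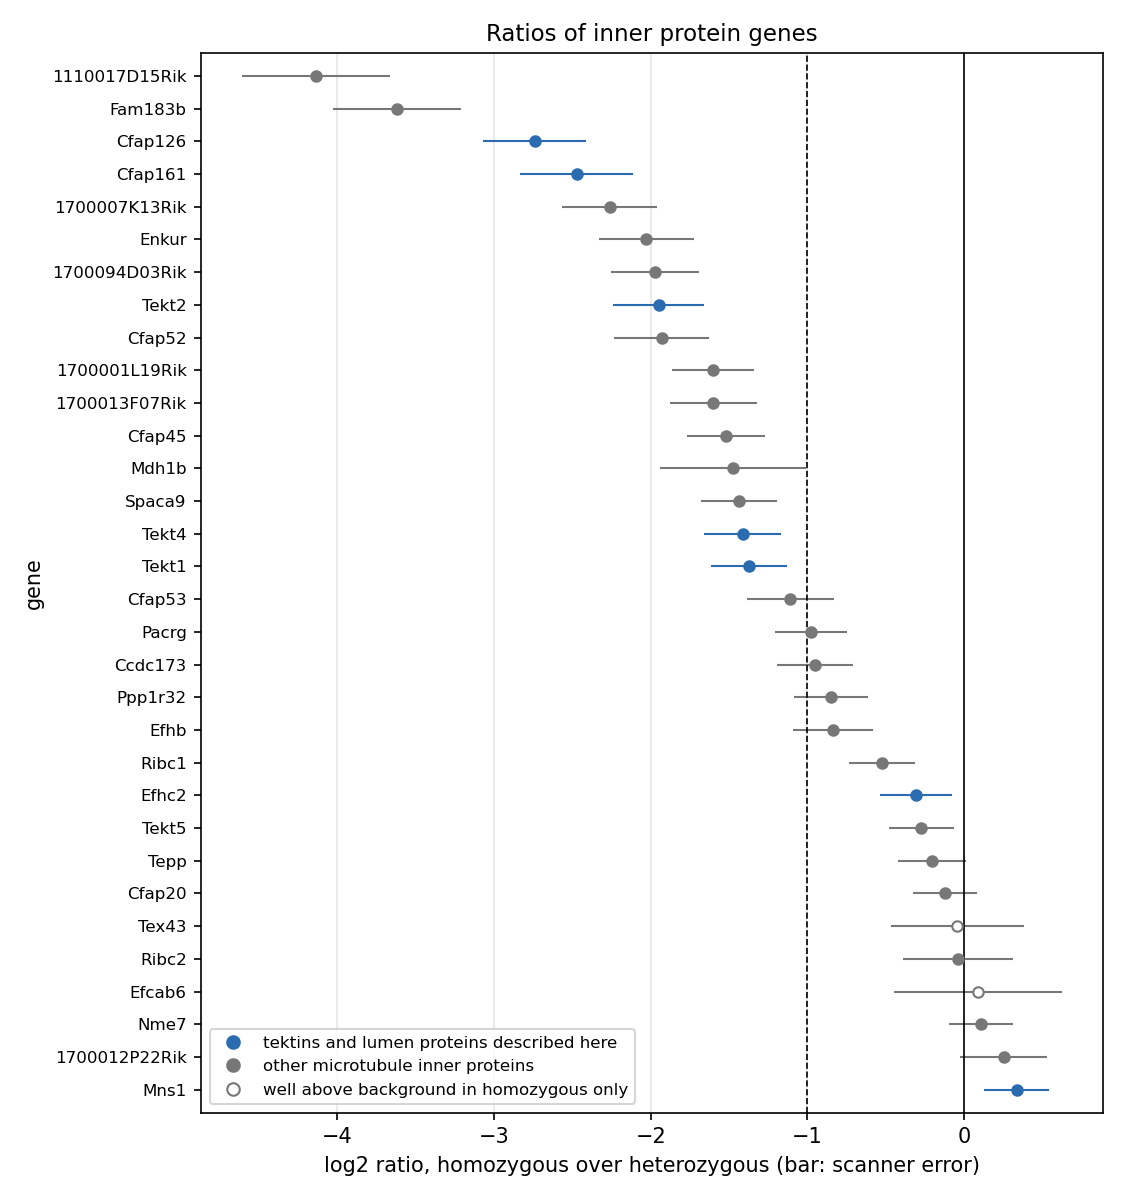
Log2 ratio, homozygous over heterozygous (x axis), of each detected lumen gene (y axis) with the scanner error as a bar; blue points are 7 of the 8 genes described, grey points the other inner proteins, and open points genes well above background in the homozygous lung only. The dashed line marks a ratio of −1, which 17 of the 32 genes lie at or below, while Mns1 at 0.34 and 1700012P22Rik at 0.25 are the highest points.

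Marker lists for ciliated cells and for other cells of the lobes were read beside these genes. The list for multiciliated cells includes Foxj1 and no lumen gene. Of its 16 detected regulators and markers, 15 had a ratio below 0 and 6 were at least 2-fold lower, with a median of −0.79. Among all detected genes these shares were 50.4% and 1.88%. With median centring 14 of the 16 were below 0 and 4 were at least 2-fold lower, with a median of −0.68. The highest of the list was Rfx2 at 0.17 ± 0.24. The 3 lowest were the inner arm dynein chain Dnali1 (−2.23 ± 0.37), Foxj1 and the radial spoke gene Rsph4a (−1.69 ± 0.48, 3.23-fold lower). Rsph4a was well above background in the heterozygous lung only, so its fold is an estimate from a homozygous level that was not. Among 19 genes of primary cilia and intraflagellar transport 0 were 2-fold lower or higher, a count near the 1.88% and 0.576% of all detected genes. Their median was −0.04, or 0.20 with median centring, which put the median of all detected genes at 0.22. The lowest of the 19 were Ift27 (−0.45), Arl13b (−0.37) and, as the median of 5 probes that ran from −0.93 to 0.05, Dync2h1 (−0.41).

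Club cell markers were at least 2-fold lower in 4 of 6 genes, led by Scgb3a1 (−3.19), Scgb1a1 (−2.47) and Cyp2f2 (−1.52). Aldh1a7 went the other way, from 14.75 to 15.12, a log2 ratio of 0.36 ± 0.21. The median of the 6 markers was −1.43. With median centring it was −0.64, and 2 of the 6 then passed 2-fold downwards and 1 upwards. The summed level of the 6 was 17.76 in the heterozygous and 16.74 in the homozygous lung on the log2 scale. Levels of different probes are not comparable, so such a sum mostly follows the brightest probes, here that of Scgb3a2 (17.34 and 15.99). Cardiac and striated muscle markers were at least 2-fold lower in 6 of 9 genes (5 with median centring), led by Myl7 (−3.52), Csrp3 (−2.79) and Tnni3 (−2.74). The highest of the list stood at −0.07. Summed levels were 15.47 and 13.91, and Myl7, with the highest heterozygous level of the list, had 14.58 and 11.06. All markers of both lists were measured in both channels. The part of such differences between the dissected lobes in the ratios of tektins and lumen proteins was not tested. Male germ cells also make these proteins, and 8 markers of them were read. The germ cell stage that each marker belongs to was not considered, so the list does not test whether germ cells were present. Of the 8, Dazl, Acrv1 and Odf1 were not well above background in either channel. Ddx4 (levels 6.47 and 7.69) and Sycp3 (6.35 and 6.79) were well above background in the homozygous lung only. That state was shared by 1694 genes of the array, beside 271 in the heterozygous lung only. Set against the lowest level well above background in the heterozygous channel, Ddx4 was 2.09-fold higher in the homozygous lung. That fold leaves out the probe's scanner error of 0.44 on the log2 scale. Ddx4 was the 1 of 5 detected markers past 2-fold upwards. Summed levels of the 5 detected markers were 10.07 and 10.34, and include heterozygous levels of Ddx4 and Sycp3 that were not well above background. The lowest ratios were those of Prm2 (−0.26), Tnp1 (−0.14) and Prm1 (0.36).

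The promoters were read for letters known from ciliary gene control, the X-box bound by Rfx factors and the forkhead motif, in the 250 bases before each RefSeq start on GRCm38.p6. The X-box was searched as the core letters GTTGCC and as a paired form, GTNNCC followed after 2 bases by GGNNAC, and the forkhead motif as TGTTTA and TGTTTG, all on both strands. Matches of the 2 X-box forms may overlap each other. An X-box form was present in 6 of the 8 genes, beside 12.8% of the 27025 genes in the table. These were Tekt1, Tekt2, Mns1 and Cfap161 with the core (11.8% of genes) and Tekt4 and Cfap126 with the paired form (1.81% of genes). A forkhead form was present in 5 of the 8 genes, beside 28.1% of genes. These were Tekt1, Tekt2, Tekt4 and Cfap126 with TGTTTG and Tekt3 with TGTTTA. A gene counts when any of its windows holds the letters, and Tekt2 and Cfap126 have 3 windows each and Tekt1 has 2. Efhc2 had no match to any of the 4. Such letters are a description of the sequence and not evidence of binding.

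The 4 windows below are shown because they hold the letters in different arrangements, for the 3 genes with the lowest ratios and for Mns1, which was not lower. Capitals mark the motif letters, and each runs 5′ to 3′ on the strand of the gene, ending 1 base before the start. The Cfap126 window is at chr1:171122795-171123044, plus strand, the third of its starts, with the paired form 82 to 69 bases before the start and 2 overlapping copies of TGTTTG nearer to it. The Cfap161 window is at chr7:83794840-83795089, minus strand, with 3 cores within 66 bases of the start, all read on the opposite strand as GGCAAC. The Tekt2 window is at chr4:126325689-126325938, minus strand, the first of its starts, with cores on both strands and a forkhead match 8 to 3 bases before the start. The Mns1 window is at chr9:72438279-72438528, plus strand, with 1 core 72 to 67 bases before the start.
Cfap126: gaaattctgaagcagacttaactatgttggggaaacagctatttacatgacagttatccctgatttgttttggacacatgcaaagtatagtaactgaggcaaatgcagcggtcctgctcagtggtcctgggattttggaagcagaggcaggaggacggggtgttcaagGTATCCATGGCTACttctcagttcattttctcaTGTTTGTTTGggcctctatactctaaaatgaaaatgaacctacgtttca
Cfap161: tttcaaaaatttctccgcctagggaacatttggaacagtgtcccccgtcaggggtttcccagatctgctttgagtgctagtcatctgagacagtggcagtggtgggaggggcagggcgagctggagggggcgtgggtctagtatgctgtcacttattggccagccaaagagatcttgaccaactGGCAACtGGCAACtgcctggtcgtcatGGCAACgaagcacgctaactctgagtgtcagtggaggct
Tekt2: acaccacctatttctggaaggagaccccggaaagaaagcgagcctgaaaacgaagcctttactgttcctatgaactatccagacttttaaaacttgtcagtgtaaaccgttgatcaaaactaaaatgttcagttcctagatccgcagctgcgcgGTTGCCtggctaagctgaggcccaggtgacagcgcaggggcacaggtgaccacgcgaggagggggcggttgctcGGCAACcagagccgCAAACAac
Mns1: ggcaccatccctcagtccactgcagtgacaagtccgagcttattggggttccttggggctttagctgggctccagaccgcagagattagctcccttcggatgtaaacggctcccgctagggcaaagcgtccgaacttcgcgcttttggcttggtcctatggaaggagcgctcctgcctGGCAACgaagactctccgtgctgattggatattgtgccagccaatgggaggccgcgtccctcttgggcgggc

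In Tekt1 the cores stood in both orientations close to the first of its starts, at 35 to 30 and 15 to 10 bases before it, and in Tekt4 the paired form lay 160 to 147 bases before the start. The core was thus present both in genes at least 2-fold lower and in Mns1, which stood at 0.34, while Tekt4 at −1.41, Cfap126 at −2.74, Efhc2 at −0.31 and the unmeasured Tekt3 lacked it.

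**Figure D4:**
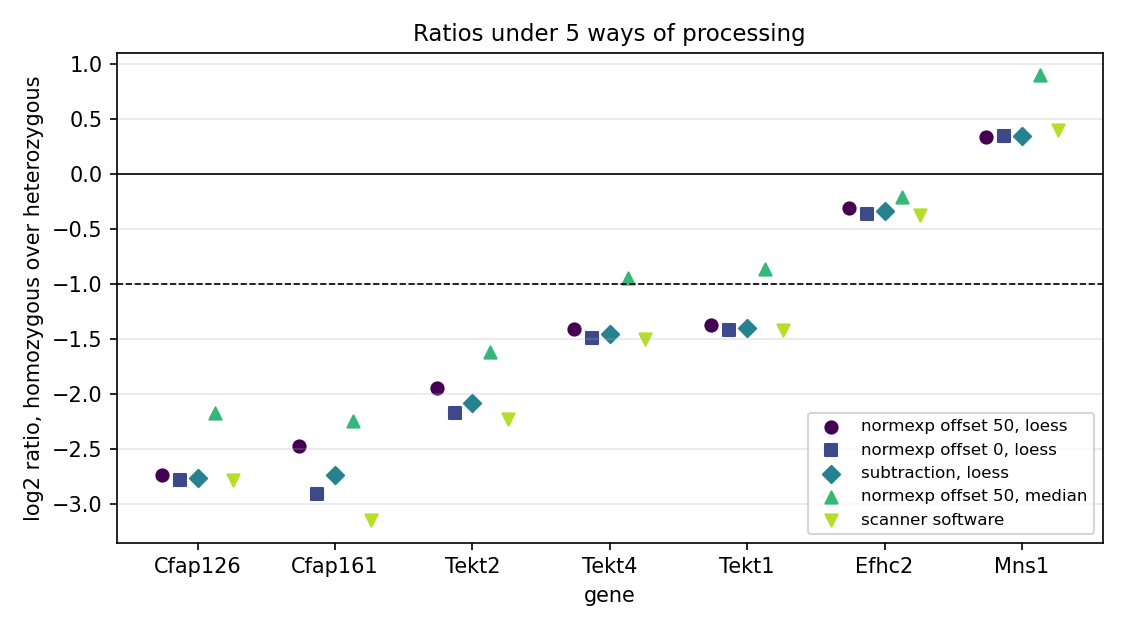
Log2 ratio, homozygous over heterozygous (y axis), of 7 genes (x axis) under 5 ways of processing the same array, one symbol each, with a dashed line at −1. Cfap126, Cfap161 and Tekt2 stay below the line in all 5, Tekt4 and Tekt1 rise above it with median centring (−0.95 and −0.86), and Mns1 stays above 0 in each.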

How the data were processed

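One two-colour array compared 1 lung per genotype. The 2 deposited scanner files are identical and count as 1 measurement. Spot and background brightness were deposited as intensity on a linear scale, and the deposited log10 ratio is red over green after the scanner software's detrending, linear and LOWESS dye normalization, per the file headers. The software was Agilent Feature Extraction 9.5.3.1, per the submitters' processing notes. The authors' deposited matrix holds the processed intensity of each channel times 1.68 with a floor of 15, found by comparison with the scanner values. Its medians were 139.8 (heterozygous) and 138.8 (homozygous). The reason for the factor is not known.

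Mean signals were corrected by normexp (offset 50, which pulls ratios of dim probes towards 0) and loess-normalized in limma 3.58.1 (R 4.3.3, package data.table at version 1.17.8), with control spots at weight 0. Levels are the log2 intensities of each channel after this step. The 169 outlier spots were left out and 0 were saturated. Probes with over a 0.5 share of spots well above background, in either channel, were kept, and a gene is the median of its kept probes. Of 41174 probes, 24367 were named by transcript accession in the RefSeq table of GRCm38.p6, 6307 by symbol, 2425 by synonym, and 8075 kept the file's name. In the inner protein list, 7 of 36 names had no match in that table and 2 matched names had no probe, while 13 were found through older symbols. Further steps used Python 3.11.15, numpy 2.4.6, pandas 2.3.3 and matplotlib 3.10.9.

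Genes were counted from a log2 ratio of −1 downwards or 1 upwards. A gene measured in 1 lung only was set against the lowest level well above background in the other channel, or its own value there if higher. The fold so found is open to dye bias and leaves out the scanner error. For Rsph4a its own value was used, so its fold is an estimate and not a bound. The 8 genes and all lists were chosen with earlier results of these data known. Named genes were Foxj1, the 8, every inner protein gene at least 2-fold changed, Tekt5, the highest of that list, and the 3 lowest of each marker list, apart from lung epithelium, which is given as a range. Tex43, Efcab6, Ddx4, Sycp3, Dazl, Acrv1 and Odf1 are named for their detection and were chosen after their values were seen. Aldh1a7 and Rfx2 are named as the club cell and multiciliated cell markers with the highest ratio, and Scgb3a2 as the brightest club cell marker. These were also chosen after their values were seen. A gene of the inner protein list and rule is not reported here. The number of arrays, 1, limits the precision. Promoter sequences are from RefSeq on GRCm38.p6, where all 8 genes matched, and probe sequences and coordinates on mm8 are those of the deposited files. The 10 alternatives tried were 2 other background corrections, another normalization, the scanner software's ratio, the deposited matrix, 2 other filters, the brightest probe, outlier spots kept and naming by the file's gene name alone.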

Additional observations from a re-analysis of the deposited data

How the results depend on the processing

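Of 80 comparisons of a count or median between the processing described and its 10 alternatives, 67 stayed within 1.5 times (counts) or within the scanner error (medians) of the value reported. This tally is no measure of stability. Counts of the 8 genes and of the inner proteins at least 2-fold higher were 0 in every setting. Filters and probe choice can hardly move genes with a single probe, and the scanner software's log ratio and the deposited matrix gave these genes the same medians. With median centring in place of loess, 3 of the 8 genes were at least 2-fold lower, their median was −0.95, and 724 of all genes were at least 2-fold higher beside 302 lower, so that most such genes were higher and no longer lower. With probes named by the file's gene name alone, Cfap126 and Cfap161 stood under their older names and dropped out, which left 3 genes at least 2-fold lower, and 6 of the other inner proteins. With a normexp offset of 0, 773 of all genes were 2-fold lower and 221 higher. With the scanner software's log ratio the counts were 1143 and 593 and the inner protein median was −1.32, and with the deposited matrix they were 1139, 457 and −1.32. Over the alternatives that measured them, Cfap126 ran from −2.79 to −2.18, Cfap161 from −3.15 to −2.24, Tekt2 from −2.23 to −1.62, Tekt4 from −1.50 to −0.95, Tekt1 from −1.42 to −0.86, Efhc2 from −0.50 to −0.20 and Mns1 from 0.34 to 0.90. The 0.90 of Mns1 came with median centring and was 0.68 relative to the median of all genes there. Without a filter on dim probes Tekt3 had a ratio of −0.31, which has no measured level behind it. No paired analysis was possible because each genotype has 1 lung on 1 array, and for the same reason no replicate could be left out. The cause of these shifts was not tested. Signal over background limits Tekt3, the homozygous level of Cfap161 and the downstream probe of Efhc2.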
